A study of Mus musculus with 30 samples.

Results

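The genes described here are 10 transcription factors of the naive pluripotent state, Nanog, Klf2, Klf4, Klf5, Esrrb, Tbx3, Nr0b1, Prdm14, Zfp42 and Nr5a2. They, and the gene lists set beside them below, were chosen by name with earlier results of these data known. All 10 were found among the 20286 gene symbols of the deposited expression tables. Their RNA was compared between mouse embryonic stem (ES) cells of 2 genotypes, Tdg fl/fl, in which Tdg is floxed but present, and Tdg -/-, both of the strain labelled C57BL/6-ICR. Tdg encodes thymine DNA glycosylase, which removes formylated and carboxylated cytosine from DNA. For each genotype, 2 libraries of polyA RNA were made, and the deposited table of that genotype holds 1 pooled value per gene, in FPKM (fragments per kilobase of transcript, scaled to the mapped reads). The labels do not say how the deletion was made or whether either genotype is a single clone. The medium described for other libraries of the series held serum, LIF (leukemia inhibitory factor), the GSK3 inhibitor CHIR99021 and the MEK inhibitor PD0325901, without feeder cells. The labels do not repeat it for the RNA libraries.

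Naive pluripotency is the state of the preimplantation epiblast, and ES cells can be held in it by LIF together with inhibitors of GSK3 and of MEK. The factors form a network downstream of Pou5f1 and Sox2: LIF acts through STAT3 on Klf4 and other genes, loss of GSK3 activity relieves repression by Tcf7l1 at Esrrb, Klf2 and Nanog, and FGF signals through MEK and ERK draw cells out of the state. The same state is known for low DNA methylation, and Prdm14 represses the genes of de novo methyltransferases. Formylcytosine arises from methylcytosine mostly at CpG dinucleotides, so the CpG content of a gene's start region says how many such sites it offers.

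With 1 pooled value per genotype there is no spread between replicates, so no difference below has a test, an error or a p-value. Changes are given as log2((Tdg -/- FPKM + 1)/(fl/fl FPKM + 1)), and the counts use genes with at least 1 FPKM in either genotype, of which there were 12053. A gene is called higher past the threshold where FPKM + 1 was at least 25% higher in Tdg -/- cells, and lower past it where it was at least 20% lower, which is a log2 change of 0.32 either way. In Tdg -/- cells Tdg itself stood at 9.48 FPKM, against 22.1 FPKM in fl/fl cells, lower as labelled but not absent. The labels do not name the deleted exons, so the level left cannot be read further. Chromosome 11, on which the genes were lower as a group (median change -0.21 over 999 genes), held none of the 10 factors. The total of all FPKM values was 446397 in fl/fl and 425972 in Tdg -/- cells, so the scaling of the tables bears on small differences.

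All 10 factors were expressed in both genotypes, and their levels per transcript length spanned a range of 23.6-fold in fl/fl and 20.3-fold in Tdg -/- cells. Nanog, the homeodomain factor that sustains self-renewal, had the highest level, at 473 FPKM in fl/fl cells and 456 FPKM in Tdg -/- cells. Prdm14, the methyltransferase repressor, had the lowest, at 20.1 and 22.5 FPKM. The order in fl/fl cells was Nanog, Klf2, Esrrb, Klf4, Zfp42, Tbx3, Nr0b1, Klf5, Nr5a2 and Prdm14. In Tdg -/- cells Klf5 stood above Nr0b1 and the order was otherwise the same. Whether neighbours in this order differ beyond the spread between libraries cannot be judged from pooled values. The levels placed Nanog at rank 131 of all symbols in fl/fl cells and Prdm14 at rank 4025. Summed over the 10 genes the level was 1257 FPKM in fl/fl cells and 1312 FPKM in Tdg -/- cells. Nanog alone made up 37.6% of the sum in fl/fl and 34.7% in Tdg -/- cells. Without Nanog the sums were 784 and 856 FPKM.

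**Figure D1:**
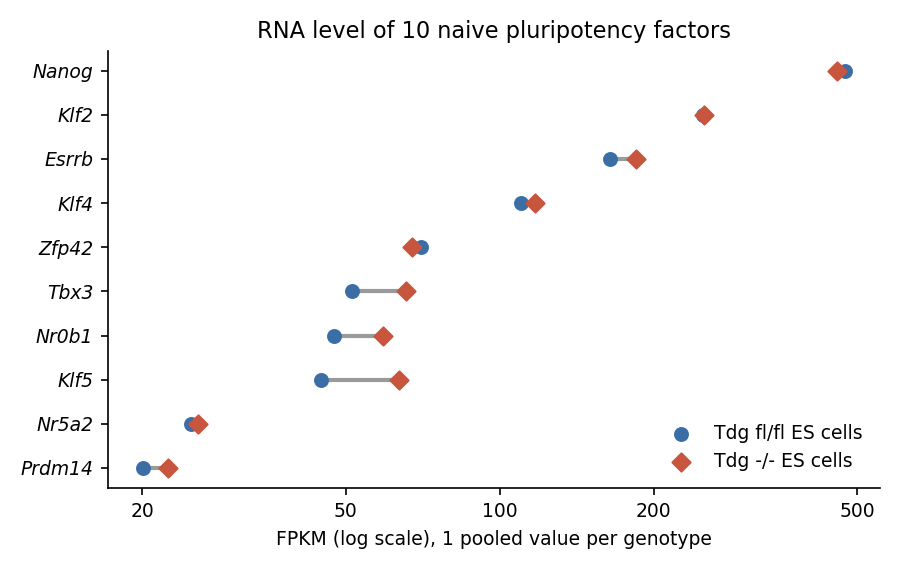
RNA level of each of the 10 factors in FPKM on a log axis, with 1 pooled value in Tdg fl/fl (circles) and 1 in Tdg -/- ES cells (diamonds), ordered by the fl/fl level and joined by a line. The widest gaps are at Klf5 (44.8 to 63.6 FPKM), Tbx3 (51.5 to 65.5 FPKM) and Nr0b1 (47.5 to 59.0 FPKM), while Klf2 and Nr5a2 nearly coincide.

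In the change from fl/fl to Tdg -/- cells, 8 factors were above 0 and 2 below 0, with a median of 0.12. The choice of the 10 was not blind to earlier results of these data, so the shares beside these counts are descriptions and not tests. Of all measured genes 45.1% were above 0 and 54.9% below, with a median of -0.02. Of the 3895 genes within the factors' range of fl/fl FPKM 33.2% were above 0 and 66.8% below, with a median of -0.07. Klf5 and Tbx3, 2 of the 10, were higher past the threshold, against 5.59% of measured genes and 2.95% of those in the same range of levels. No factor was lower past the threshold, against 5.72% of measured genes and 7.09% of those in the range. None was 2-fold higher, against 0.183% and 0.0257%, or 2-fold lower, against 0.174% and 0.128%. Either way, 0.357% and 0.154% of genes were past 2-fold. With the Tdg -/- table scaled to the same total FPKM as the fl/fl table, all 10 factors were above 0 and 3 were higher past the threshold. Over all measured genes that scaling gave 982 higher and 441 lower past the threshold, in place of 674 and 689. It put 7202 of 12093 measured genes above 0, in place of 5434 of 12053. In bulk RNA a different share of cells in the naive state and a different amount of RNA per cell cannot be told apart.

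**Figure D2:**
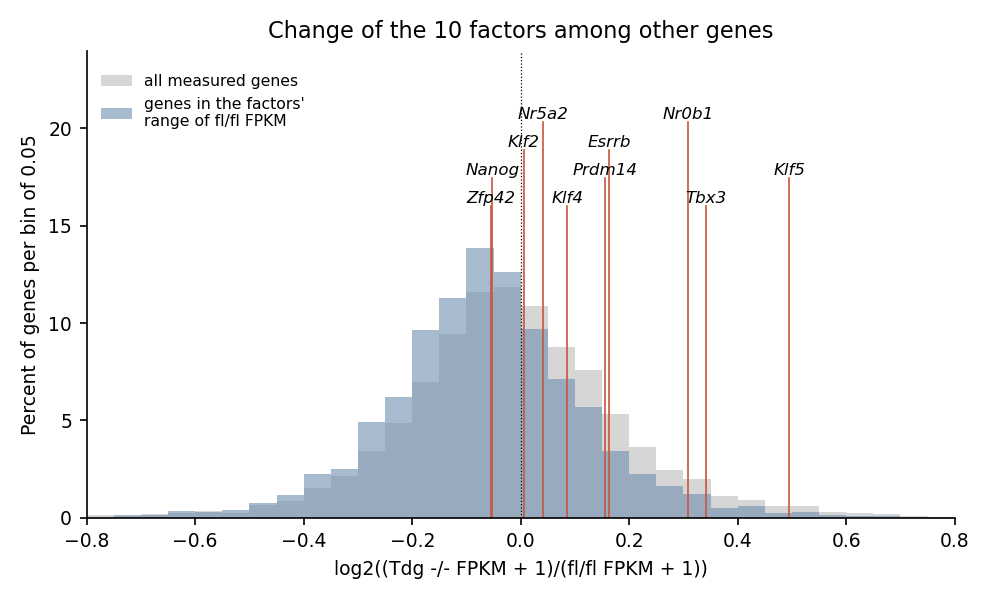
Distribution of the log2 change (Tdg -/- over fl/fl, +1 scale) as the percent of genes per bin, for all measured genes (grey) and for those within the factors' range of fl/fl FPKM (blue), with a line at each of the 10 factors. Klf5 (0.50), Tbx3 (0.34) and Nr0b1 (0.31) stand in the right tail, and Nanog (-0.05) and Zfp42 (-0.05) near the middle of both distributions.

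Nanog and Zfp42 were the 2 factors below 0. With equal totals Nanog was at 0.02 and Zfp42 at 0.01, and after quantile normalization Zfp42 was at 0.00014. Zfp42, better known as Rex1, encodes a zinc finger protein related to Yy1 and is a common marker of the naive state. Nanog changed by -0.05, and by 0.10 after quantile normalization. Zfp42 stood at 70.0 FPKM in fl/fl cells and 67.4 FPKM in Tdg -/- cells, also a change of -0.05, and ranged from -0.10 to 0.01 over the scalings and other settings. Mouse Nanog has pseudogene copies of similar sequence, and how reads matching both were assigned is not stated. Yy1, at 38.4 and 39.3 FPKM, and Yy2, at 5.36 and 5.48 FPKM, changed by 0.03 each. In the 2 tables the level of Nanog differed by -3.57% and that of Zfp42 by -3.79%.

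The start regions of Nanog and Zfp42 both hold the core of the octamer, the element that Pou5f1 and its relatives bind. RefSeq promoters (GRCm38.p6, a later build than the mm9 used for the series) were read for 7 of the 10 factors, as the 250 bases before each of 10 annotated starts. The octamer core TTTGCAT (either strand, a motif added after the data were seen) was found for Nanog and Zfp42 of the 7. It was in 3 of the 10 start regions, against 4.12% of 32851 promoters, and both regions of Nanog hold the same match. The windows are shown because they hold that match, in capitals, with up to 20 bases on each side, 5′ to 3′ along the gene. It begins 75 bases before the first listed start of Nanog and 185 bases before that of Zfp42. A match of letters is a description of the sequence and does not show binding.
Nanog (chr6:122707394-122707440, plus strand): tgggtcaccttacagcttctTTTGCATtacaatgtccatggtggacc
Zfp42 (chr8:43307168-43307214, minus strand): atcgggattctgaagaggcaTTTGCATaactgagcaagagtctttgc

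The 3 Krüppel-like factors differed in the size of their change, with Klf5 highest. They are zinc finger proteins that bind CACCC and GC-rich sequence and can stand in for one another in ES cells. Klf2, an ERK-sensitive member, stood at 250.3 FPKM in fl/fl cells and 251.3 FPKM in Tdg -/- cells, a change of 0.01. Klf4, a STAT3 target and one of the reprogramming factors, stood at 110 and 117 FPKM, a change of 0.09. Klf5 stood at 44.8 and 63.6 FPKM, a change of 0.50 and the largest of the 10. Of all measured genes 1.87% had a larger change than Klf5, which ranked 36 among the 3895 genes in the factors' range of levels. Its value lay between 0.41 and 0.56 over all settings tried. Klf2 and Klf4 also stayed above 0, at 0.01 to 0.09 for Klf2 and 0.08 to 0.15 for Klf4.

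The Klf family has 17 genes in the tables, the 3 factors included. Of these 14 were measured, and 12 of the 14 were above 0, with a median of 0.17, against 45.1% of all measured genes. Those higher past the threshold were Klf5, Klf10, Klf12 and Klf15, 4 of the 14, against 5.59% of measured genes, and none was lower past it. Klf10, induced by TGF-beta signals, stood at 31.0 FPKM in fl/fl cells and 44.2 FPKM in Tdg -/- cells, a change of 0.50. Klf12, a repressor, went from 0.91 to 1.83 FPKM, a change of 0.57. It passed the minimum of 1 FPKM through Tdg -/- cells alone, where it was high, so its call depends on that minimum. Klf15 stood at 5.07 and 6.66 FPKM, a change of 0.34. Klf8 (-0.18) and Klf16 (-0.03) were the members below 0. With equal totals, 13 of 14 were above 0, against 7202 of 12093 measured genes. Klf2 and Klf4 had the highest levels of the family in both genotypes.

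The start regions of Klf2 and Klf4 were rich in CpG and those of Nanog poor. Among the 250 bases before the start, Klf4 had 32 CpG and Klf2 had 29, more than in 95.4% and 93.2% of all promoters. Nr0b1 had 11, Zfp42 had 9, Esrrb 6 and 3 at its 2 starts, Nr5a2 2 and 6, and Nanog 3 and 2, where the median promoter had 6. The motif CACCC (either strand) was found for 6 of the 7 factors, in 7 of their 10 start regions, against 52.0% of all promoters. The Klf4 and Nanog regions (first listed start) are shown to set a CpG-rich and a CpG-poor start side by side, 5′ to 3′ along the gene, with each CpG in capitals.
Klf4 (chr4:55532476-55532725, minus strand): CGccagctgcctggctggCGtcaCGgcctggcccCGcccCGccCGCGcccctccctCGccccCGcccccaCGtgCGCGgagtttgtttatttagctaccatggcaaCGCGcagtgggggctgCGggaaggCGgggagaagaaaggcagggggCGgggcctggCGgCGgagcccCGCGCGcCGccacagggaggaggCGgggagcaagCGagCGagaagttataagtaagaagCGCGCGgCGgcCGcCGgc
Nanog (chr6:122707239-122707488, plus strand): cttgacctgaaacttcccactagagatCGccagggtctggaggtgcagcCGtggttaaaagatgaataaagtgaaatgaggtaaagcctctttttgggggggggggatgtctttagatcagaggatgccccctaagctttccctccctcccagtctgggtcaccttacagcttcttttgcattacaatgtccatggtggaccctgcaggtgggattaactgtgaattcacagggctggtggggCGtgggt

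The nuclear receptors among the factors differed from each other. Esrrb, an orphan receptor that occupies many pluripotency genes, stood at 164.6 FPKM in fl/fl cells and 184 FPKM in Tdg -/- cells, a change of 0.16. Nr0b1 (Dax1), which lacks a classical DNA-binding domain and acts as a cofactor, stood at 47.5 and 59.0 FPKM, a change of 0.31, just under the threshold of 0.32. It passed when the median gene was set to 0, with equal totals, after quantile normalization, and with the median of its chromosomal neighbours subtracted. Nr5a2 (LRH-1), a receptor that binds at Pou5f1, stood at 24.9 and 25.7 FPKM, a change of 0.04. After subtracting the median of its chromosomal neighbours Nr5a2 was at -0.05. Esrrb and Nr0b1 kept their sign in every setting, with 0.16 to 0.24 and 0.29 to 0.37.

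Each of these receptors was the main member of its branch in the cells. Esrra stood at 7.33 FPKM in fl/fl cells, and Esrrg at 0.03 FPKM, below Esrrb at 164.6 FPKM. Nr0b2 and Nr5a1 stood at 0.08 and 0.02 FPKM, well under Nr0b1 and Nr5a2. Over 21 nuclear receptor genes 12 were measured, with 6 above and 6 below 0, against 45.1% and 54.9% of all measured genes. The median was -0.01, or 0.05 with equal totals, where that of all measured genes was 0.04. Nr2c1 alone of the 12 was higher past the threshold (3.68 to 4.90 FPKM), against 5.59% of measured genes, and Rara (18.8 to 14.2 FPKM) and Rarg (18.1 to 14.2 FPKM), receptors for retinoic acid, were lower past it, against 5.72%. With equal totals neither of these was past it. Rara lies on chromosome 11, where the median was -0.21, and the part of that chromosome in its value was not tested.

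Nr0b1 is the one of the 3 highest changes whose start region could be read, and it is shown for that reason, with each CpG in capitals. It also held both TCF-like forms searched, CTTTGA and CTTTGT (either strand), which 13.8% and 16.5% of all promoters hold. The second form was also found for Nr5a2, whose change was 0.04. Neither the STAT form TTCCNGGAA (0.913% of promoters) nor the receptor form TCAAGGTCA (0.387%) was found in these windows of the 7 factors.
Nr0b1 (chrX:86191525-86191774, plus strand): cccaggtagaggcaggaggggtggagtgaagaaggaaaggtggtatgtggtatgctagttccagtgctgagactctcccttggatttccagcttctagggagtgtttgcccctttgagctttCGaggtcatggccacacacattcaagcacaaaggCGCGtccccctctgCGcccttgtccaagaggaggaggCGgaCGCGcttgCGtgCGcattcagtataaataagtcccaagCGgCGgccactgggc

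Tbx3 and Prdm14 complete the group. Tbx3, a T-box factor that acts downstream of LIF through PI3 kinase, stood at 51.5 FPKM in fl/fl cells and 65.5 FPKM in Tdg -/- cells, a change of 0.34. Of all measured genes 4.77% had a larger change. It lay between 0.32 and 0.41 over all settings, and with a pseudocount of 5 it was just under the threshold. Of 16 T-box genes 5 were measured. Among these Tbx3 alone was past the threshold in the tables as deposited, against 5.59% of measured genes higher past it. Mga was the next in level, at 39.6 and 44.9 FPKM. Prdm14 changed by 0.16, from 20.1 to 22.5 FPKM, and was the highest of 8 measured Prdm genes in fl/fl cells. Prdm1 stood at 3.53 and 4.58 FPKM, a change of 0.30, and Prdm16 at 2.08 and 2.57 FPKM. Prdm10 stood at 6.54 and 5.60 FPKM, a change of -0.19. Of the 8 Prdm genes 3 were above 0 and 5 below, with a median of -0.05. Of all measured genes 45.1% were above 0 and 54.9% below.

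The genes linked to Prdm14 through DNA methylation moved little, as did most measured genes. Of 6 measured, 5 were below 0, with a median of -0.09. Of all measured genes 54.9% were below 0, and 66.8% of those in the factors' range of levels. Not all of the 6 had levels in that range. None of the 6 was past the threshold, against 5.59% of measured genes higher and 5.72% lower. With equal totals 4 of 6 were below 0, against 4891 of 12093 measured genes. Dnmt3b, the de novo methyltransferase that Prdm14 represses, stood at 19.0 and 17.2 FPKM, a change of -0.13, and Dnmt3l, its cofactor, at 99.1 and 93.8 FPKM, a change of -0.08. Tet1, a dioxygenase that oxidizes methylcytosine, was the one above 0, at 66.6 and 76.9 FPKM. Cbfa2t2, the partner protein of Prdm14, stood at 29.6 and 28.5 FPKM.

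Each factor was set against the 25 measured genes nearest to it on its chromosome, in the gene order of GRCm38.p6. Klf5 was above 24 of its 25 neighbours, Tbx3 above 23 and Nr0b1 above 23. Esrrb was above 20, Prdm14 above 19, Klf4 above 17, Nanog above 15 and Klf2 above 13. Nr5a2 was above 10 and Zfp42 above 7. With the neighbours' median subtracted, 8 of the 10 were above 0 and the median was 0.10. The one neighbour above Klf5 was Klf12, the measured gene next to it. Next to Nanog lie Dppa3, at 15.6 and 6.77 FPKM (-1.09), and the glucose transporter gene Slc2a3, at 806 and 800 FPKM (-0.01). Of the 25 neighbours of Nanog 6 were above 0, with a median of -0.09, and Nanog was at 0.03 relative to them. Beside Zfp42, Triml2 (28.6 to 32.2 FPKM) and the cadherin gene Fat1 (32.2 to 35.8 FPKM) were both above 0, unlike Zfp42.

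**Figure D3:**
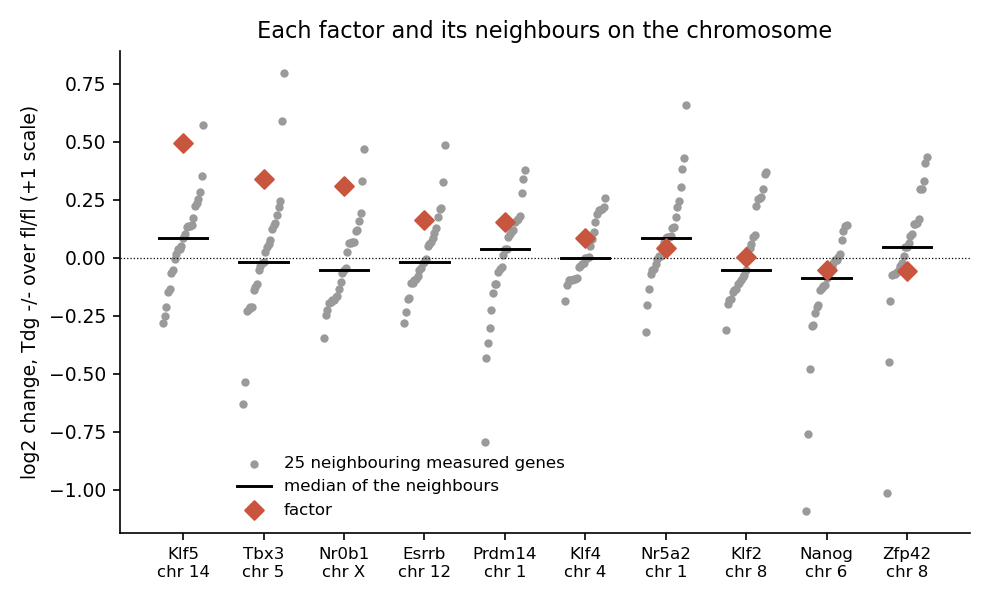
Log2 change (Tdg -/- over fl/fl, +1 scale) of each factor (diamond) and of the 25 nearest measured genes on its chromosome (points, with the median as a bar), ordered by the change of the factor. Klf5, Tbx3 and Nr0b1 stand above all but 1 or 2 of their neighbours, and the low points beside Nanog include Dppa3 at -1.09.

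The flanking measured genes of the other factors stayed within the threshold, except at Prdm14 and Nr5a2. Slco5a1, next to Prdm14, went from 1.76 to 2.58 FPKM, and Gm16880, next to Nr5a2, from 0.85 to 1.91 FPKM. Gm16880 was measured only through Tdg -/- cells, where it was high. Beside Tbx3, Med13l was at 0.14 and Rbm19 at -0.21. Beside Nr0b1, Gyk was at 0.12 and Pola1 at 0.16. Klf2 lay between Ap1m1 (-0.13) and Eps15l1 (0.06), Klf4 between Gm12505 (-0.02) and Ikbkap (-0.09), and Esrrb between 1700020O03Rik (0.05) and Vash1 (-0.02).

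Each factor has 1 gene most like it in level and change, by distance in log2(FPKM + 1) over the 2 pooled values. For Klf5 it was Itgb1, the integrin beta chain (46.5 to 62.4 FPKM, distance 0.06). For Tbx3 it was Nupr1, a stress-induced chromatin protein (50.4 to 66.3 FPKM, distance 0.03), and for Nr0b1 the proline synthesis gene Aldh18a1 (46.8 to 59.4 FPKM, distance 0.02). Nanog was closest to Cox6a1 (456 to 441 FPKM), Klf2 to Hnrnpu, Esrrb to Sfpq and Klf4 to D4Wsu53e. Prdm14 was closest to Hnrnph3, Zfp42 to Map1lc3b and Nr5a2 to Tada3. Such likeness over a pair of values says that another gene had nearly the same 2 values, and no more.

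Of 12 measured core pluripotency genes, 9 were above 0, against 45.1% of all measured genes, with a median of 0.10. Of the 12, 2 were higher past the threshold, against 5.59% of measured genes, Utf1 (31.6 to 46.1 FPKM) and Foxd3 (15.1 to 19.4 FPKM). Pou5f1 stood at 630.5 and 612 FPKM (-0.04), near Nanog in its change, and Sox2 at 196 and 232 FPKM (0.24). Other genes of the naive state went both ways. Of 7 measured, 3 were above and 4 below 0, or 4 above and 3 below with equal totals. With that scaling 7202 of 12093 measured genes were above 0. Tcl1, a cofactor of Akt kinases, was higher past the threshold (40.8 to 59.1 FPKM), and Dppa3 and the Ets factor Spic (12.8 to 9.10 FPKM) were lower past the threshold. These are 1 of 7 higher and 2 of 7 lower, against 5.59% and 5.72% of measured genes. Dppa5a, an RNA-binding protein gene with the highest level in these lists, stood at 4571 and 4691 FPKM.

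Lists of signals known to act on the factors were read in the same way. In the LIF and STAT3 list 5 of 9 measured genes were above 0, with a median of 0.02. Of all measured genes 45.1% were above 0, and 33.2% of those in the factors' range of levels. Several genes of this list and of the FGF and ERK list had levels below that range, so the second share is not matched to them. None of the 9 was past the threshold as deposited, against 5.59% of measured genes higher and 5.72% lower. Lif, Stat3 and Socs3 lie on chromosome 11, and the part of that chromosome in their values was not tested. Stat3 stood at 25.2 and 23.0 FPKM, and Lifr, the receptor, at 14.2 and 15.9 FPKM. The STAT3 targets Socs3, at 34.4 and 36.4 FPKM, and Pim1, at 55.1 and 68.3 FPKM, were above 0. The 4 genes of this list below 0 were Lif (-0.21), Bcl3 (-0.19), Junb (-0.17) and Stat3 (-0.12). In the FGF and ERK list 4 of 12 were above 0, against the same 45.1% and 33.2%, with a median of -0.06. With equal totals 6 of 12 were above 0, with a median above 0, against 7202 of 12093 measured genes. Myc was the one past the threshold (1.91 to 1.18 FPKM) and was lower, against 5.72% of measured genes. Dusp6, an ERK-induced phosphatase, was at 1.93 and 2.45 FPKM, and Map2k2, a MEK kinase, at 29.8 and 25.3 FPKM.

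In the Wnt and TCF list 8 of 12 measured genes were below 0, with a median of -0.15. Of all measured genes 54.9% were below 0, as were 66.8% of those in the factors' range of levels. Several of the 12, Axin2 and Lef1 among them, had levels below that range, so the second share is not matched to the list. Of the 12, 4 were lower past the threshold, against 5.72% of measured genes. These were the DNA-binding partners of beta-catenin Lef1 (1.92 to 0.82 FPKM) and Tcf7 (21.9 to 17.0 FPKM), and the Wnt targets Sp5 (1.22 to 0.61 FPKM) and Axin2 (8.34 to 5.98 FPKM). Lef1 and Sp5 were above the minimum of 1 FPKM in fl/fl cells only, where they were high, so their calls depend on that minimum. Axin2 and Tcf7 are on chromosome 11, with its median of -0.21. Tcf7l1, the repressor of Esrrb and Nanog, stood at 25.8 and 28.4 FPKM (0.14). Under equal totals 7 of 12 were below 0 and 3 lower past the threshold, against 4891 and 441 of 12093 measured genes. As deposited, 5.59% of all measured genes were higher past the threshold and 5.72% lower. Among 7 measured genes known for the exit from the naive state none was past it. Rbpj (67.0 to 76.8 FPKM) and Mbd3 (44.5 to 39.4 FPKM) had, with Tcf7l1, the largest changes. Of 7 measured primed epiblast genes 6 were below 0, with a median of -0.14, against 54.9% of all measured genes. The other 4 of the 11 listed, Fgf5 among them, were under the minimum in both genotypes. With equal totals 6 of 8 were below 0, with a median of -0.08, against 4891 of 12093 measured genes. As deposited, Otx2 (2.55 to 1.51 FPKM) and Lef1, which also stands in the Wnt list, were lower past the threshold, against 5.72% of measured genes. Fst (10.1 to 14.7 FPKM) was higher past it, against 5.59%.

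**Figure D4:**
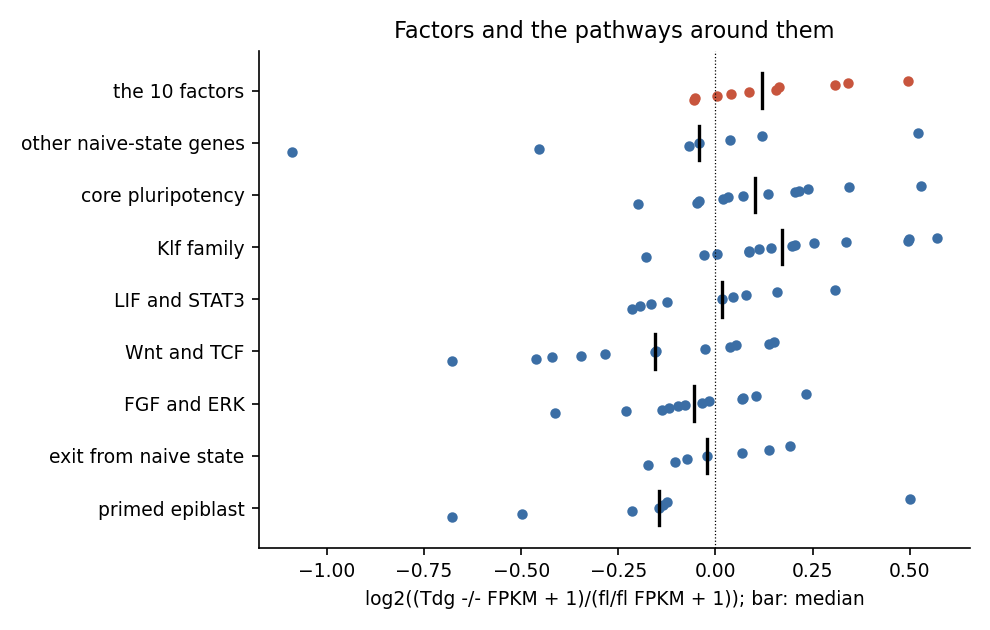
Log2 change (Tdg -/- over fl/fl, +1 scale) of each measured gene (points) in the 10 factors and in 8 lists around them, with each list's median as a bar. Medians are above 0 for the factors (0.12), the core genes (0.10) and the Klf family (0.17), and below 0 for the Wnt and TCF (-0.15) and primed epiblast lists (-0.14).

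Markers of other cell types were mostly under 1 FPKM in both tables. This held for 8 of 9 primitive endoderm genes, whose summed level was 2.63 FPKM in fl/fl cells and 2.30 FPKM in Tdg -/- cells. It also held for 4 of 7 trophectoderm genes, with Krt8 (16.6 and 15.0 FPKM) and Krt18 (8.80 and 6.92 FPKM) making up most of a sum of 29.2 and 25.6 FPKM. Mesoderm genes summed to 6.76 and 5.55 FPKM, with 3 of 6 under the minimum, and neuroectoderm genes to 9.99 and 9.19 FPKM, with 3 of 6 under it. Fibroblast genes summed to 2.90 and 2.15 FPKM, with 6 of 7 under it and Lum listed at 0. The markers above the minimum in fl/fl cells, besides the keratins and Thy1, were Nes (6.09 FPKM there), Eomes (3.11 FPKM), Neurog1 (2.67 FPKM), Gsc (1.85 FPKM), Gata4 (1.27 FPKM) and Msx2 (1.12 FPKM). Sox1, at 0.97 FPKM in fl/fl cells, passed it in Tdg -/- cells only, with a change of 0.19. Sox17, Cdx2, Mesp1 and Pax6 were under it in both, with Pax6 the highest of these at 0.12 FPKM in fl/fl cells. The part of these other markers in the levels of the factors was not tested.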

How the data were processed

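Expression was measured by polyA RNA sequencing of Tdg fl/fl and Tdg -/- ES cells, with single reads of 51 bases per the labels' protocols. The authors deposited 1 table of FPKM per genotype. Per the submitters' processing notes, TopHat 1.4.1, Cufflinks 1.3.0 and the mm9 build were used in the series; the sources used here do not give how the 2 libraries of a genotype were combined. The depth is unknown, since the low values of short receptor genes were whole reads (within 0.05) for at most 38.8% of them. The 20437 rows were summed by symbol. A pseudocount of 1, a minimum of 1 FPKM and thresholds of 25% higher or 20% lower and of 2-fold were used, in Python 3.11.15 with pandas 2.3.3, checked on made-up tables with known changes. No test was possible. The 8 deposited region lists, in mm9, were not used here, because no mm9 gene positions were used here. Gene order came from GRCm38.p6 (20133 symbols matched) and promoters from RefSeq. Tfcp2l1, Tfap2c, Tfe3 and Uhrf1 were not analysed here. Genes named are the factors, the largest changes of each list (up to 3, and any past 2-fold), flanking and most alike genes, and some list members chosen after their values were seen. The factors and lists were chosen with earlier results of these data known. The 2 libraries of a genotype are not known to come from separate cultures.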

Additional observations from a re-analysis of the deposited data

How the results depend on the processing

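No paired analysis was possible because each genotype has 1 pooled value per gene. For the same reason no library could be left out. Over 9 alternatives, 89 of 90 values of single factors stayed within 0.1 of the change as deposited. The other was Nanog after quantile normalization (0.10). Nanog was above 0 there and with equal totals. Zfp42 was at 0.00014 after quantile normalization and at 0.01 with equal totals. Nr5a2 was below 0 (-0.05) relative to its neighbours. A different minimum FPKM could not move the value of a factor, and keeping the row with the highest FPKM left every value as it was. Setting the median gene to 0 shifted all factors alike, and equal totals nearly so. The number of values within 0.1 was therefore in large part fixed by the choice of alternatives. The number of factors past the 25% threshold was 2 as deposited and 1 with a pseudocount of 5, where Klf5 alone passed. It was 3 after quantile normalization, with the median gene set to 0, with the neighbours' median subtracted and with equal totals. The share of measured genes higher past it, 5.59% as deposited, was 8.22% with a pseudocount of 0.1, 4.36% with a minimum of 5 FPKM, 8.12% with equal totals and 2.95% within the factors' range of levels. The last 2 alternatives were chosen after seeing the data. The cause of these shifts was not tested. The alternatives on regions at the factors were not run, since no region was assigned to a gene. The unknown depth leaves the counting error of each value unknown.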

Other observations

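Across 8505 measured genes with a RefSeq promoter, split into 3 classes, the change did not follow the CpG content of the start region in one direction. The median change was -0.02 in the class with the fewest CpG (0 to 12 in 250 bases, 2957 genes), -0.04 in the middle class (13 to 20, 2791 genes) and -0.01 in the class with the most (21 to 55, 2757 genes). The shares of genes higher past the threshold of 25% were 6.56%, 4.30% and 4.82%. Median fl/fl levels differed as well, at 8.65, 14.3 and 14.3 FPKM. Of the 7 factors with a promoter, Klf2 and Klf4 fall in the class with the most CpG, and the others in that with the fewest.

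Genes of the 2-cell-like state were low in both genotypes. Of 8, 6 were measured, 5 of them above 0, against 45.1% of all measured genes, with a median of 0.04. Over the 8 genes the summed level was 10.4 FPKM in fl/fl cells and 11.2 FPKM in Tdg -/- cells. Tdpoz1 (0.67 to 1.09 FPKM) had the largest change, and Zscan4f stood at 2.78 and 2.64 FPKM. Tdpoz1 passed the minimum of 1 FPKM through Tdg -/- cells alone, where it was high, so its place in the count depends on it.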
